A study of Mus musculus with 6 samples.

Results

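The ATP-binding cassette (ABC) transporters are membrane proteins that use ATP to move lipids, sterols, bile salts and conjugated drugs across membranes. The family was examined in mouse hepatocytes sorted by DNA content. A probe set belonged to it when the platform annotation gave exactly 1 gene symbol made of Abca to Abcg and a number. This rule found 65 probe sets of 36 genes, out of 12393 genes measured. Each gene was read from its brightest probe set, by the mean of the 6 arrays. Hepatocytes were isolated fresh from C57BL/6 wild type mice at 3 weeks of age, stained alive with Hoechst 33342 and separated in a flow sorter into a diploid and a tetraploid fraction, from which total RNA was taken at once. Each fraction was represented by 3 arrays. All 6 samples share genotype, age and isolation. Replicates are labelled as biological ones, without the sex of the animals or whether they were separate animals, so the p-values rest on a spread whose source is only partly known. The sort used DNA content, and diploid cells that had copied their DNA before division fall into the tetraploid fraction.

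In the liver, ABC proteins of the canalicular membrane, the face of the hepatocyte that lines the bile channels, make bile by exporting bile salts, phospholipid, sterols and conjugates. Relatives on the basolateral membrane, which faces the blood, return conjugates to the circulation. Others sit in peroxisomes, mitochondria and lysosomes, and the ABCE and ABCF proteins have the ATP-binding cassettes without a membrane part and act on ribosomes. Several of these genes are known targets of ligand-activated nuclear receptors, such as the bile acid receptor FXR (Nr1h4) and the oxysterol receptor LXR (Nr1h3).

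Upstream sequences of 3 canalicular entries were searched for short elements. They were read from RefSeq sequence windows of build GRCm38.p6, which held 27 of the 36 genes. Abcb11 and Abcc2 are shown because they export bile salts and conjugates and their means differed in opposite directions between the fractions. Both 250-base stretches end at the last base before the annotated start. Capitals mark AGGTCA, the hexamer bound by nuclear receptors, searched on both strands, so it can read TGACCT. The stretch between Abcg5 and Abcg8 is shown because these neighbours on chromosome 17 are read away from each other, and a stretch of 109 bases separates the start of Abcg5 from the nearer of the annotated starts of Abcg8. Its capitals mark the AGATAA element, known for binding GATA factors and searched on both strands too, so that it reads as TTATCT here.
Abcb11 (chr2:69342617-69342866, minus strand): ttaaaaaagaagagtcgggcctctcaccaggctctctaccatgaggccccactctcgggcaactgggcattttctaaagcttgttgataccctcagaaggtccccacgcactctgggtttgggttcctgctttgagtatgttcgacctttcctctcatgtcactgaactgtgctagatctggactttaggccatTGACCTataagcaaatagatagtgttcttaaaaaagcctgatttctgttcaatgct
Abcc2 (chr19:43782058-43782307, plus strand): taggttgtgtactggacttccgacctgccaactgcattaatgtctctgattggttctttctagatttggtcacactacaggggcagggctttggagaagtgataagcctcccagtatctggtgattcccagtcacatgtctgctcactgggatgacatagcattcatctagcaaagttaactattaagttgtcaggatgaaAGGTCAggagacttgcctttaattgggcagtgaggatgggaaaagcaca
Abcg5-Abcg8 (chr17:84683012-84683120, plus strand): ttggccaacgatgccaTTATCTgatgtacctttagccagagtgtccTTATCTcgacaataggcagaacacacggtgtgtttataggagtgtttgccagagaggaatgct

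The AGGTCA hexamer occurred once in each of the first pair of stretches. It was found in 5 of the 27 members with a window (Abcb11, Abcb6, Abcc10, Abcc2 and Abcg2). These 27 genes had 33 windows, and a gene counted when any of its windows held the hexamer. Of all 32851 single promoter windows, 14.0% held it in the same 250 bases, so the count and the share differ in unit. The AGATAA element occurred 2 times between Abcg5 and Abcg8. In a stretch of that length next to the start, 3.98% of the windows held it and 0.186% held 2 or more. That count of 2 was taken from this stretch itself. Within 250 bases the element was found in 3 of the 27 members (Abcf2, Abcg5 and Abcg8), of which Abcg5 and Abcg8 share the printed stretch. Of all single windows, 9.99% held it there. These matches describe the letters and are not measured binding sites. The shared stretch lies between genes whose means were nearly alike in the fractions.

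Values are log2 intensities, taken from the deposited values on a linear scale, and a log2 difference is the tetraploid mean minus the diploid mean with its standard error from limma. An intensity depends on the probes, so levels are compared between fractions and not between genes. The arrays had been brought to nearly the same distribution, which removes any difference in total RNA per cell. Fewer cells expressing a gene and less RNA per cell cannot be told apart. Of the 36 ABC genes, 31 lay above the dimmest 25% of all genes (a mean log2 intensity of 5.06) and were tested among 9295 genes. The other 5, Abca4, Abcb1b, Abcc9, Abcc10 and Abcg3, had array values between 3.61 and 5.17.

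No large shift of the family was seen between diploid and tetraploid hepatocytes. By limma with Benjamini-Hochberg adjustment over all genes, 0 of 31 ABC genes passed an adjusted p of 0.05, against 0 of 9295 genes (0%). The smallest adjusted p was 0.757, for Abcc3. At an unadjusted limma p under 0.05 there was 1 higher gene (Abcc2) and there were 2 lower genes (Abcc3 and Abca2) in the tetraploid fraction. Together these are 9.68% of the tested ABC genes, against 6.18% of all genes tested, with 2.32% higher and 3.85% lower. The fractions did not overlap for 4 ABC genes (12.9%), against 12.3% of all genes tested. Of these 4, Abcc2 was higher, where 5.22% of all genes were, and Abcb1a, Abcc3 and Abca3 were lower, where 7.08% were. These shares lie near the background. Of the 31 genes, 14 had a higher and 17 a lower mean in tetraploid cells, and the median log2 difference was -0.01, equal after rounding to that of all genes. The median size of a difference, regardless of sign, was 0.09 over the ABC genes and 0.08 over all genes.

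The unadjusted calls depended on single arrays. The higher call was lost without diploid replicate 1 or 2 or tetraploid replicate 2 or 3, each of which left 0. The lower calls went from 2 to 0 without diploid replicate 1 and to 1 without tetraploid replicate 2 or 3. Over all 9295 genes tested, 574 passed unadjusted in either direction with all arrays. This count was 378 without diploid replicate 1 and 639 without diploid replicate 2. It was 469 without tetraploid replicate 2 and 575 without tetraploid replicate 3, so calls over all genes moved with single arrays too. The number of ABC genes whose fractions did not overlap was 4 without diploid replicate 1 and 5 without tetraploid replicate 2. It was 8 without diploid replicate 2 or diploid replicate 3 and 9 without tetraploid replicate 1 or tetraploid replicate 3. Leaving out an array cannot make separate fractions overlap, so this number could only stay or rise. It was not counted over all genes with an array left out, and nothing is concluded from the rise.

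For the probe set used for each gene, the data also bound how large a change could be. For all 31 tested ABC genes the 95% interval of the difference from the limma fit lay inside a 1.5-fold difference in either direction. Without diploid replicate 3, or any 1 of the tetraploid replicates, this held for 30 of the 31, and with the mean of all probe sets for 29 of 30, where Abca1 differed by 0.24 ± 0.15 (SE). The lowest bound was -0.49, for Abcc8, and the highest 0.52, for Abcd4. Over all genes tested, 92.4% had such an interval. Among the probe sets used, the largest fold was 1.20, for Abcc3. A dimmer Abca1 probe set that was not used differed by 0.50 ± 0.19 (SE), and the bound does not cover it. These intervals are per gene and not adjusted for their number, and the compression of dim probe sets was not tested.

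**Figure D1:**
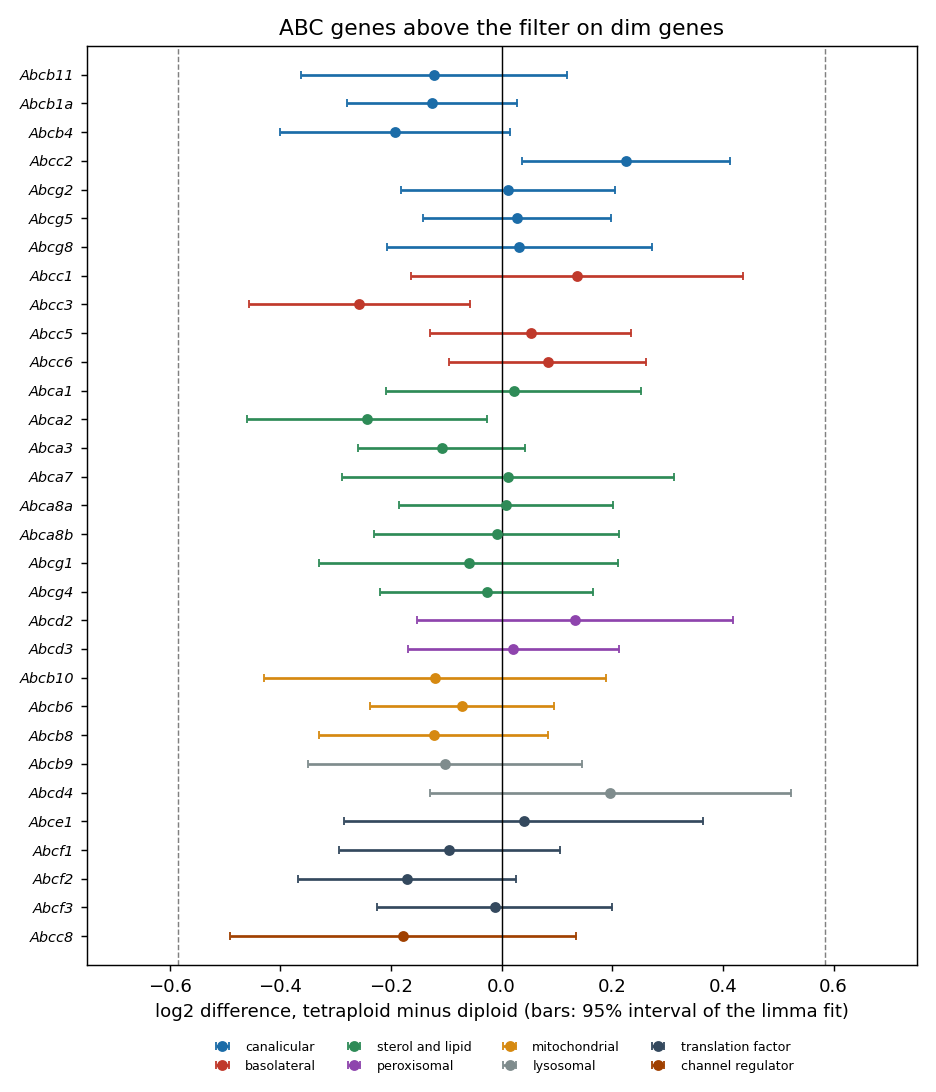
Log2 difference of each tested ABC gene (tetraploid minus diploid, horizontal axis), coloured by role, with the 95% interval of the limma fit over 3 arrays per fraction. All 31 intervals lie between the dashed lines, which mark a 1.5-fold difference, and 3 of them, those of Abcc2, Abcc3 and Abca2, leave out 0.

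Canalicular exporters went in different directions, with 4 of the 7 tested genes higher and 3 lower on average. Their median log2 difference was 0.01. Abcc2, which exports bilirubin glucuronides and other organic anions into bile, was at 11.22, 11.31 and 11.39 on the diploid arrays and at 11.44, 11.58 and 11.58 on the tetraploid arrays. Every tetraploid value lay above every diploid value, although the highest diploid and the lowest tetraploid array were close. The log2 difference was 0.23 ± 0.08 (SE), 1.17-fold, with a 95% interval from 0.04 to 0.41 and an adjusted p = 0.765 by limma. Its probe set is of a kind that can match more than a single transcript.

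The bile salt export pump Abcb11, which drives bile flow, was at 12.82, 12.88 and 12.76 in diploid cells and at 12.60, 12.58 and 12.91 in tetraploid cells. A pair of tetraploid arrays lay below all diploid arrays, but tetraploid replicate 3 was the highest of the 6. The difference was -0.12 ± 0.10 (SE), with a 95% interval from -0.36 to 0.12, and the fractions overlapped.

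Abcb4, which moves phosphatidylcholine into bile and protects the duct lining from bile salts, was at 11.42, 11.16 and 11.39 in diploid cells and at 11.10, 11.17 and 11.13 in tetraploid cells. Diploid replicate 2 lay within the tetraploid range, and the other diploid arrays lay above it. The difference was -0.19 ± 0.09 (SE), with a 95% interval from -0.40 to 0.02 and an adjusted p = 0.810 by limma. Without diploid replicate 2 it was -0.28, the lowest value when any array was left out, and the highest was -0.14.

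Abcb1a encodes a P-glycoprotein, which expels drugs and other hydrophobic compounds. It was at 7.57, 7.55 and 7.62 in diploid cells and at 7.45, 7.44 and 7.48 in tetraploid cells, so that the fractions were tight and did not overlap. The difference was -0.13 ± 0.07 (SE), with a 95% interval from -0.28 to 0.03. A second probe set for Abcb1a, at a mean of 7.003, differed by 0.001 ± 0.13, with overlapping fractions. Its close paralog Abcb1b was dim, with a diploid mean of 3.82 ± 0.17 and a tetraploid mean of 3.68 ± 0.06 (SD, n = 3). Abcb1a, Abcb1b and Abcb4 lie next to each other on chromosome 5 in the RefSeq table of GRCm38.p6.

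Abcg5 and Abcg8 form a heterodimer that secretes cholesterol and plant sterols into bile. Abcg5 was at 10.93, 10.92 and 10.94 in diploid cells and at 10.88, 11.04 and 10.95 in tetraploid cells, and Abcg8 was at 9.66, 9.67 and 9.80 against 9.54, 9.83 and 9.86. In both genes tetraploid replicate 1 was the lowest of the 6 arrays, and the tetraploid values spread around the diploid ones. The differences were 0.03 ± 0.07 for Abcg5, with a 95% interval from -0.14 to 0.20, and 0.03 ± 0.10 for Abcg8, with an interval from -0.21 to 0.27 (SE). These are the genes that share the 109-base stretch printed above.

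Abcg2, an exporter of urate, porphyrins and drug conjugates, was at 10.31, 10.24 and 10.11 in diploid cells and at 10.32, 10.18 and 10.19 in tetraploid cells. The ranges nearly coincided, and the difference was 0.01 ± 0.08 (SE), with a 95% interval from -0.18 to 0.20. Its sign turned, to -0.007, when quantile normalisation was repeated.

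**Figure D2:**
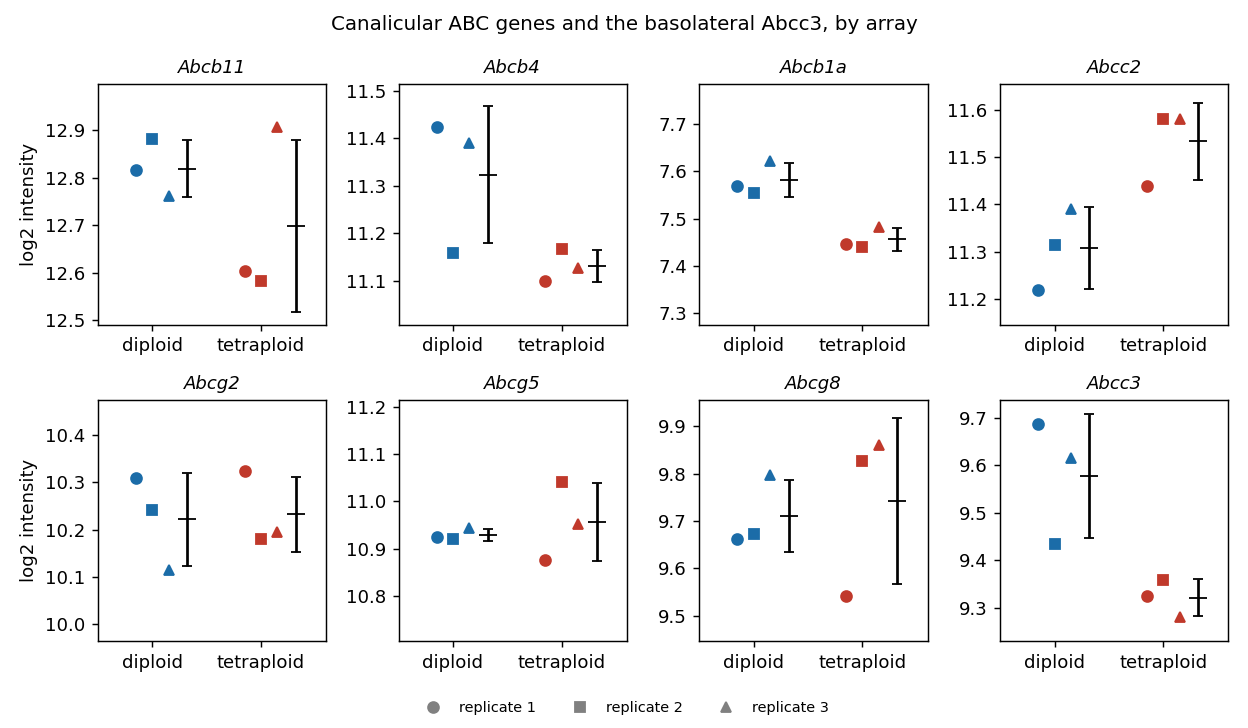
Log2 intensity (vertical axis, the same span in each panel) of the 7 tested canalicular genes and of the basolateral Abcc3 on each array, with the mean and SD of each fraction (n = 3). Abcc2 lies higher, and Abcb1a and Abcc3 lower, on all tetraploid arrays, while the fractions overlap for the other genes.

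Among the basolateral exporters, 3 of 4 tested genes had a higher and 1 a lower mean in tetraploid cells. The lower gene was Abcc3, which sends bile salts and glucuronides back to the blood and is known to increase when export into bile fails. It was at 9.69, 9.43 and 9.61 in diploid cells and at 9.32, 9.36 and 9.28 in tetraploid cells. All tetraploid values lay below all diploid values, and diploid replicate 2 was the nearest to them. The difference was -0.26 ± 0.09 (SE), with a 95% interval from -0.46 to -0.06 and an adjusted p = 0.757 by limma. It stayed between -0.33 and -0.20 when any array was left out. Abcc2 and Abcc3, which share conjugated substrates, thus had differences of opposite sign, neither of which passed adjustment over all genes.

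Abcc6, mutated in a disorder of tissue calcification and known for the release of ATP from hepatocytes, was at 8.998, 9.14 and 9.19 in diploid cells and at 9.20, 9.21 and 9.17 in tetraploid cells. Diploid replicate 1 was the lowest, the fractions overlapped, and the difference was 0.08 ± 0.08 (SE). Abcc5, an exporter of cyclic nucleotides and nucleotide analogues, differed by 0.05 ± 0.08, with array values between 7.26 and 7.46. Of its 7 probe sets, the brightest gave this value, and the mean of all of them gave -0.05. Abcc1, a glutathione conjugate exporter of many tissues, was near the cutoff for dim genes, with a diploid mean of 5.08 ± 0.21 and a tetraploid mean of 5.21 ± 0.16 (SD, n = 3), and differed by 0.14 ± 0.13 (SE). The median of the 4 basolateral genes was 0.07, but -0.05 with the mean of all probe sets, where 3 of them were bright enough to be tested.

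Of the sterol and lipid transporters, 3 of 8 tested genes were higher and 5 lower on average. Their median was -0.02 (log2 difference). Abca1, which loads cholesterol and phospholipid onto apolipoprotein A-I to start high-density lipoprotein, was at 12.18, 12.31 and 12.21 in diploid cells and at 12.09, 12.24 and 12.42 in tetraploid cells. The tetraploid arrays held both the lowest and the highest value, and the difference was 0.02 ± 0.10 (SE), with a 95% interval from -0.21 to 0.25.

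A dimmer probe set for Abca1 gave another picture. It was at 6.08, 6.77 and 6.78 in diploid cells and at 6.85, 7.08 and 7.22 in tetraploid cells. The fractions did not overlap, diploid replicate 1 was far below the rest, and the difference was 0.50 ± 0.19 (SE). The third probe set, at a mean of 5.29, differed by 0.19 ± 0.20 with overlapping fractions. This dimmer probe set was singled out after its values were seen.

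Abca2, a lipid transporter of the endosomal and lysosomal system, was at 6.84, 6.73 and 6.61 in diploid cells and at 6.62, 6.41 and 6.43 in tetraploid cells. The lowest diploid and the highest tetraploid array nearly coincided, and the other values were apart. The difference was -0.24 ± 0.09 (SE), 1.18-fold lower, with a 95% interval from -0.46 to -0.03 and an adjusted p = 0.779 by limma. When any array was left out it stayed between -0.31 and -0.19.

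Abca3, best known for packing phospholipid into the surfactant bodies of the lung, had the tightest diploid values of the family. It was at 9.85, 9.83 and 9.84 in diploid cells and at 9.71, 9.73 and 9.76 in tetraploid cells, without overlap. The difference was -0.11 ± 0.06 (SE), with a 95% interval from -0.26 to 0.04, since limma draws the small spread of these arrays towards that of other genes. Another probe set for Abca3, at a mean of 7.49, differed by 0.03, and the third, at a mean of 4.31, by -0.11. Both had overlapping fractions.

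The remaining sterol and lipid genes differed little. Abcg1, which passes cholesterol to lipoprotein particles and is prominent in macrophages, was at 6.48, 6.10 and 6.15 in diploid cells and at 6.29, 6.16 and 6.10 in tetraploid cells, a difference of -0.06 ± 0.12 (SE). Abcg4, its close relative, differed by -0.03 ± 0.08, and Abca7, a phospholipid transporter, by 0.01 ± 0.13. The neighbours Abca8a and Abca8b on chromosome 11 differed by 0.01 ± 0.08 and -0.01 ± 0.09. The array values of Abca8a lay between 11.75 and 11.91, and those of Abca8b between 8.94 and 9.21. As close copies they may share probes, so each value is uncertain as to the gene.

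Peroxisomal transporters, which carry acyl-CoA esters into the peroxisome for oxidation, were represented by Abcd2 and Abcd3. Abcd2, with a preference for very long and polyunsaturated chains, was at 10.20, 10.42 and 10.47 in diploid cells and at 10.29, 10.70 and 10.48 in tetraploid cells. Replicate 1 was the lowest array of each fraction, and the difference was 0.13 ± 0.12 (SE), with a 95% interval from -0.15 to 0.42. Abcd3, which imports bile acid precursors and branched-chain and dicarboxylic acids, was at 13.42, 13.44 and 13.29 against 13.39, 13.33 and 13.51. Its ranges overlapped, and the difference was 0.02 ± 0.08, with a 95% interval from -0.17 to 0.21.

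**Figure D3:**
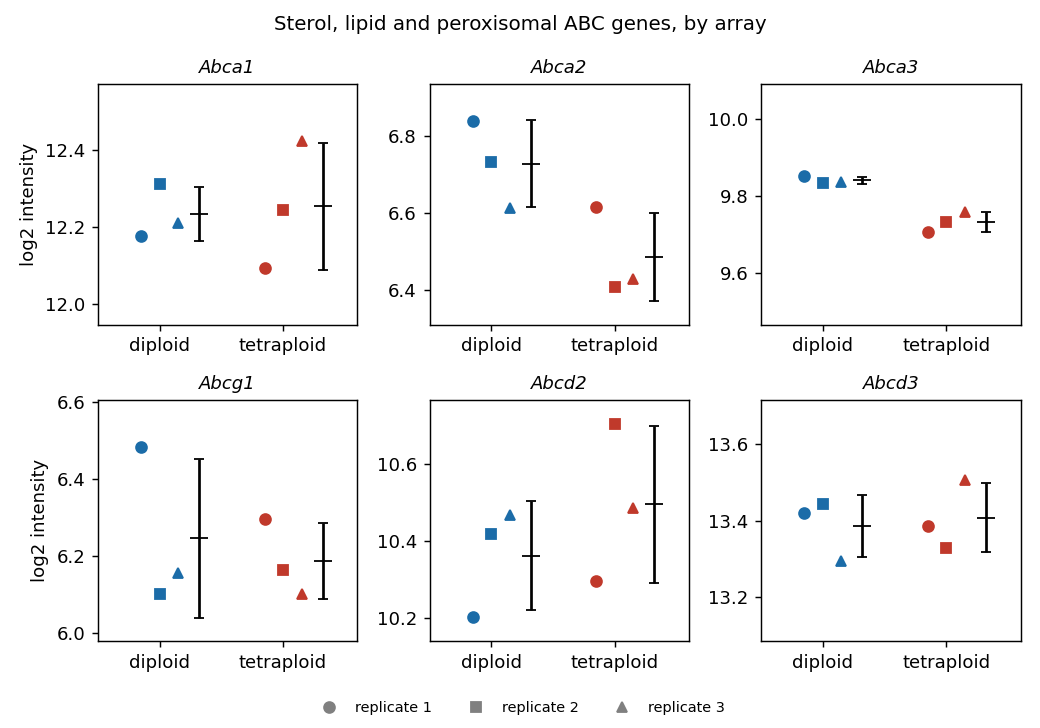
Log2 intensity (vertical axis, the same span in each panel) of 4 sterol and lipid genes and the 2 peroxisomal genes on each array, with the mean and SD of each fraction (n = 3). Abca3 is separated between the fractions by a small distance, Abca2 nearly so, and the other 4 genes overlap.

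The other members cover organelles and ribosomes. Of the 3 tested mitochondrial genes, all had a lower mean in tetraploid cells. Abcb8, linked to mitochondrial iron handling, differed by -0.12 ± 0.09 (SE), with values of 8.22, 8.05 and 8.16 in diploid and 8.06, 7.89 and 8.11 in tetraploid cells, which overlap. Abcb6, a porphyrin transporter, and Abcb10, needed for haem synthesis, differed by -0.07 ± 0.07 and -0.12 ± 0.13 with overlapping fractions. A second probe set for Abcb10, at a mean of 7.33, differed by 0.18, and the mean of its 3 probe sets by 0.02.

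Abcd4, which acts with the lysosomal export of vitamin B12, was at 6.997, 6.93 and 7.27 in diploid cells and at 7.06, 7.52 and 7.21 in tetraploid cells. The fractions overlapped, and the difference was 0.20 ± 0.14 (SE), the second largest positive one after Abcc2. The lysosomal peptide transporter Abcb9 differed by -0.10 ± 0.11. Abcc8, a sulfonylurea receptor that regulates a potassium channel of pancreatic beta cells, lay near the cutoff for dim genes and differed by -0.18 ± 0.13.

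Of the 4 ribosome-associated members, Abcf2 was at 8.32, 8.36 and 8.15 in diploid cells and at 8.17, 8.11 and 8.04 in tetraploid cells. Only its lowest diploid and highest tetraploid values crossed, and the difference was -0.17 ± 0.08 (SE), with a 95% interval from -0.37 to 0.03. Abce1, which splits ribosomes after termination, differed by 0.04 ± 0.14. Abcf1 and Abcf3, which bind ribosomes or translation factors, differed by -0.09 ± 0.09 and -0.01 ± 0.09.

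By subfamily, a grouping looked at after the values were seen, all 7 tested ABCB genes had a lower mean in tetraploid cells, with differences from -0.19 to -0.07, against 52.2% of all genes tested. None of the 7 passed an adjusted limma p of 0.05, and 0 passed an unadjusted p under 0.05. The count of 7 was the same whichever array was left out, and was 6 with the mean of all probe sets, where Abcb10 was higher. Of the 14 probe sets of the 8 measured ABCB genes, 11 were lower, so the pattern was not shared by every probe set. All 3 ABCD genes had a higher mean, from 0.02 to 0.20, with overlapping fractions in each.

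Probe sets of a gene often differed. Of the 14 tested ABC genes with more than 1 probe set, 8 had another probe set of opposite sign, namely Abca3, Abcb10, Abcb1a, Abcb9, Abcc5, Abcd4, Abcf1 and Abcf3. Over all 65 probe sets, 27 were higher and 38 lower in tetraploid cells.

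**Figure D4:**
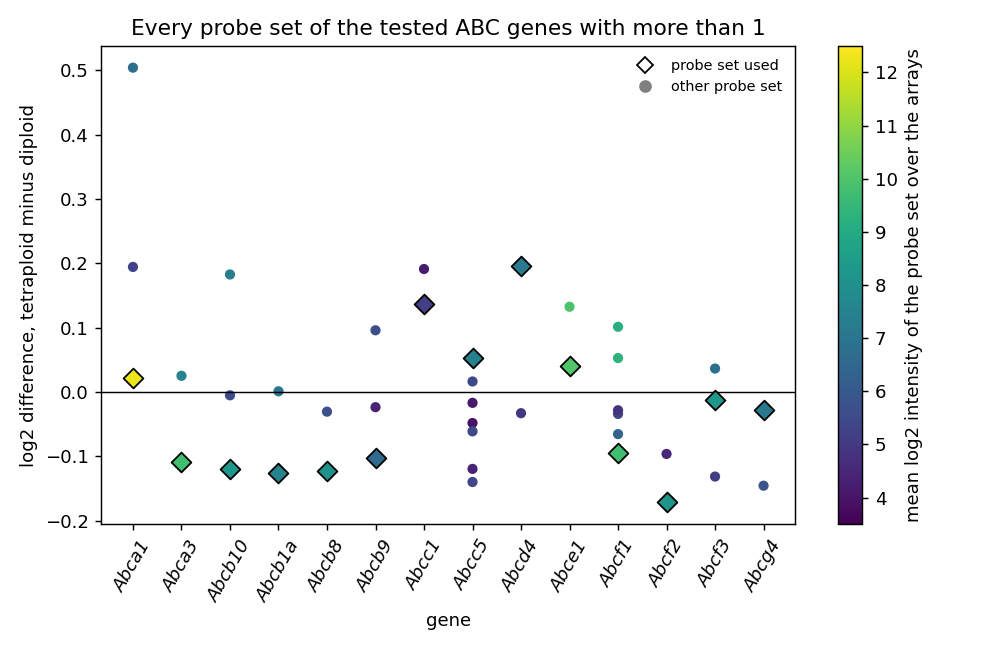
Log2 difference (tetraploid minus diploid, vertical axis) of every probe set of the 14 tested ABC genes with more than 1, coloured by mean log2 intensity, with the probe set used shown as a diamond. The difference of 0.50 belongs to a dimmer Abca1 probe set, while the bright one lies at 0.02.

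Within-fraction spread exceeded the differences for most members. In 26 of the 31 tested genes the wider of the 2 fractions spanned more than the difference between the means. The same count was not made over all genes tested, so it does not set these members apart. Part of this spread was common to arrays of different fractions. Diploid replicate 3 and tetraploid replicate 2 deviated from their fraction means with the same sign in 26 of the 31 genes. Both were the lowest of their fraction for 7 genes, among them Abcb11, Abcb10 and Abce1, and both the highest for 8, among them Abcc2, Abcd2 and Abcd4. Across the 31 genes, which are not independent replicates, the deviations of this pair of arrays had a Pearson correlation of 0.75, and over all genes tested it was 0.69. The pair was singled out after the values were seen, as the highest of 9 pairs of a diploid and a tetraploid array, of which the lowest were at -0.64 and -0.54. Deviations from a mean of 3 arrays sum to 0, so these 9 values are not independent. Over all genes tested, diploid replicate 1 correlated with tetraploid replicate 1 at 0.57 and diploid replicate 2 with tetraploid replicate 3 at 0.38. The labels give no such matching, and spread shared by arrays of both fractions is not modelled in the limma fit used here.

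Genes that regulate or work with the ABC transporters also stayed below the threshold. Of 14 measured regulators, 0 passed an adjusted limma p of 0.05 and 1 passed unadjusted, against 6.18% of all genes tested. It was Nr5a2, a nuclear receptor of bile acid and cholesterol metabolism. Its values were 10.003, 10.07 and 10.01 in diploid and 10.17, 10.21 and 10.20 in tetraploid cells, a difference of 0.16 ± 0.07 (SE). Nr5a2 was also the 1 of 14 without overlap, against 12.3% of all genes tested. The bile acid receptor Nr1h4 differed by 0.10 ± 0.10, the oxysterol receptor Nr1h3 by -0.02 ± 0.08, and the xenobiotic receptors Nr1i2 and Nr1i3 by 0.16 ± 0.13 and 0.07 ± 0.16. Ppara, the fatty acid receptor behind many peroxisomal genes, was spread widely and differed by 0.33 ± 0.20. The median of the regulators was 0.08, with 10 higher and 4 lower on average.

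Among 11 tested partner carriers, 7 had a higher and 4 a lower mean, with a median of 0.04. Slco1b2, which takes up bilirubin and drugs from the blood, was at 13.10, 13.32 and 13.25 in diploid cells and at 13.42, 13.55 and 13.59 in tetraploid cells. Its fractions did not overlap, and the difference was 0.30 ± 0.09 (SE), with an adjusted p = 0.625 by limma. Slco1b2 was the 1 of 11 at an unadjusted limma p under 0.05, against 6.18% of all genes tested. It was also the 1 of 11 without overlap, against 12.3%. The bile salt uptake carrier Slc10a1 differed by 0.04 ± 0.07. The cation exporter Slc47a1 differed by -0.11 ± 0.07.

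Of 12 genes of canalicular anchoring and traffic, 7 were higher and 5 lower on average. The small GTPase Rab8a differed by 0.18 ± 0.07 and the membrane fusion protein Stx3 by 0.16 ± 0.09 (SE). They were the 2 of 12 without overlap, against 12.3% of all genes tested. Rab8a was the 1 of 12 at an unadjusted limma p under 0.05, against 6.18% of all genes tested. Of 8 sterol handling partners, 3 were higher and 5 lower. The lysosomal cholesterol exporters Npc1 and Npc2 differed by 0.16 ± 0.13 and -0.07 ± 0.07. Npc2 was the 1 of 8 without overlap, and 0 of the 8 passed an unadjusted limma p under 0.05. Of 16 peroxisome partners, 12 had a higher and 4 a lower mean, and the median was 0.06. There Acaa1a, a thiolase, differed by 0.15 ± 0.06 and Pex3 by 0.17 ± 0.08. Pex19, which acts with Pex3 in the insertion of peroxisomal membrane proteins such as Abcd3, differed by -0.10 ± 0.08. Acaa1a was the 1 of 16 at an unadjusted limma p under 0.05. Acaa1a and Scp2, both higher, were the 2 of 16 without overlap. In these 3 lists 0 genes passed an adjusted limma p of 0.05.

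Markers of other cell types were read beside these values. All 7 measured hepatocyte markers were bright on all arrays, with a median log2 difference of 0.01. That median is the difference of Alb, the brightest of all genes. Alb had the same value, 15.57, on diploid replicate 2 and all tetraploid arrays, so it says little about hepatocyte content. Cyp2e1, higher by 0.11, was the 1 of 7 without overlap, against 12.3% of all genes tested. Of 10 endothelial markers, 8 were tested, 6 of them higher, with a median of 0.23, and Pecam1 and Tek were dim. Of the 8, Mrc1 and Fcgr2b were higher without overlap, where 5.22% of all genes were. At an unadjusted limma p under 0.05, 3 of the 8 were higher (Clec4g, Mrc1 and Fcgr2b), against 2.32% of all genes tested. None of the 8 endothelial markers passed an adjusted p of 0.05. The log2 of the summed intensity of the endothelial markers was between 9.92 and 10.10 on the diploid and between 10.06 and 10.30 on the tetraploid arrays. Endothelial cells also express Abca1, Abcb1a and Abcg1, and the part of such cells in the values of these genes was not tested. Summed Kupffer cell markers lay between 8.74 and 8.92 in diploid and between 8.59 and 8.83 in tetraploid cells, with 5 of 6 tested genes lower. Of 5 cholangiocyte markers 3 were dim, of 8 stellate cell markers 3, and of 7 blood cell markers 4. The summed blood cell markers did not overlap, at 8.325 to 8.37 in diploid and 8.27 to 8.312 in tetraploid cells, so the nearest arrays almost met. The cholangiocyte sums were 7.45 to 7.62 against 7.40 to 7.45, and the stellate sums 9.55 to 9.72 against 9.67 to 9.73, and both overlapped. Without overlap, the stellate marker Pdgfrb was lower by a log2 difference of -0.24, at an unadjusted limma p under 0.05. Reln, another stellate marker, was higher by 0.12, also without overlap. Of the 5 tested stellate markers, 2 had a higher and 3 a lower mean. Pdgfrb and Reln were the 2 of 5 without overlap, against 12.3% of all genes tested. Pdgfrb was the 1 of 5 at an unadjusted limma p under 0.05, against 6.18%. Of the 3 tested blood cell markers, 1 had a higher and 2 a lower mean. The T cell marker Cd3e differed by -0.21 and was the 1 of 3 without overlap, against 12.3% of all genes tested. Alas2 differed by 0.12 and S100a9 by -0.06, both with overlap. The part of these cells in the ABC values was not tested.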

How the data were processed

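RNA from 3 diploid and 3 tetraploid samples was hybridised to Affymetrix arrays. The authors deposited an intensity, not on a log scale, for every probe set on every array. The submitters' processing notes name RMA without a version. That the scale is linear follows from the array medians, which were between 86.4 and 89.2. Pearson correlations between arrays were 0.992 to 0.997, and no 2 arrays were identical.

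After conversion of the values to log2, 64 control probe sets of 22690 were dropped, and probe sets with several gene symbols or none were left unassigned. Symbols of all 36 ABC genes matched RefSeq (GRCm38.p6) by Entrez identifier. The dimmest 25% of 12393 genes were left out, and limma 3.58.1 in R 4.3.3 (lmFit, eBayes, two-sided, ploidy as the single factor) was fitted on the other 9295, with Benjamini-Hochberg adjustment over all of them. The procedure was tested on simulated data whose noise was independent between arrays. That simulation cannot show whether the p-values or intervals hold where arrays share spread. The number of arrays limits precision, with a median standard error of 0.10. Deviations of equally numbered samples correlated at 0.57, -0.20 and -0.20, so the numbers were not taken as pairs.

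The members and lists were chosen with earlier results of these data known. ABC genes of the canalicular, basolateral, sterol and lipid, and peroxisomal roles were named, then the 3 other ABC genes with the smallest p (Abcf2, Abcd4 and Abcb8), the 2 partners per list with the smallest p and key regulators. Other ABC genes were named after their values were seen. Some key partners on these lists are not reported here. Alternatives covered the filter on dim genes, the choice of probe set, repeated quantile normalisation, array weights, a variance trend, a replicate block and leaving out each array.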

Additional observations from a re-analysis of the deposited data

How the results depend on the processing

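In every alternative 0 ABC genes passed an adjusted limma p of 0.05. Of the 31 tested genes, 17 kept the sign of their difference in every alternative that tested them, among them Abcc2, Abcc3, Abca2, Abcb4 and Abcb1a. With the replicate number as a block, 0 ABC genes passed an adjusted limma p of 0.05, the smallest being 0.780. Unadjusted, 1 higher and 2 lower ABC genes passed, against 549 of 9295 over all genes in either direction. Over all genes the adjusted calls went from 0 to 9. All 31 ABC signs were kept, as this block leaves the mean differences unchanged. Equally numbered arrays 2 and 3 correlated at -0.20 each, so the block cannot show what modelling the shared spread would give. When each array was left out in turn, the higher unadjusted calls ran from 0 to 1 and the lower ones from 0 to 3. Over all genes, the unadjusted calls of either direction ran from 378 to 639 of 9295. The ABC genes without overlap ran from 4 to 9, a number that cannot fall when an array is left out. The median ran from -0.049 to -0.015 for all ABC genes, -0.043 to 0.013 for canalicular, 0.026 to 0.095 for basolateral, -0.056 to 0.033 for sterol and lipid and 0.044 to 0.13 for peroxisomal genes. The sign turned without some array for Abca1 (-0.064 to 0.10), Abca7 (-0.095 to 0.12), Abca8a (-0.040 to 0.061), Abca8b (-0.091 to 0.044), Abcd3 (-0.028 to 0.060), Abce1 (-0.079 to 0.15), Abcf3 (-0.060 to 0.058), Abcg1 (-0.13 to 0.059), Abcg2 (-0.043 to 0.055), Abcg4 (-0.070 to 0.032), Abcg5 (-0.015 to 0.068), Abcg8 (-0.026 to 0.13), Nr1h3 (-0.052 to 0.032), Nr1i3 (-0.060 to 0.20).

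With the dimmest 50% of genes left out, 1 lower gene passed unadjusted, since Abca2 was no longer tested. Over all genes, 369 of 6197 passed there in either direction. With the mean of all probe sets, 2 ABC genes did not overlap, a number not counted over all genes in this setting. Unadjusted, 636 of 9295 genes passed there in either direction. The basolateral median was -0.045. Without a filter the canalicular median was -0.056, as the dim Abcb1b entered. Signs turned with the mean of all probe sets for Abcb10 (0.019), Abcc5 (-0.045) and Pex19 (0.034), with array weights for Abcf3 (0.0018) and with repeated quantile normalisation for Abcg2 (-0.0070).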
